A study of Mus musculus with 6 samples.

Results

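The genes described here are 32 mouse genes of sterol and fatty acid synthesis and their control, chosen by name from the pathway. Of these, 18 code for enzymes on the route from acetyl-CoA to cholesterol, 8 for enzymes of fatty acid synthesis and desaturation, and 6 for proteins that control the route or carry its product. The deposited tables list 37991 genes, and 31 of the 32 genes have a row there. The identifier of Hmgcs1, an early enzyme of the sterol route, was not matched, and the gene has no expression values here. All 31 passed the filter on low counts that left 16472 genes, and the lowest value of any of them in any library was 5.66 CPM, the read count brought to a common library size.

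The cells are C2C12, an established line of mouse myoblasts (strain C3H) that fuses into myotubes when growth serum is taken away. Every group was transduced with a lentivirus, which carried a short hairpin against Kap1 (sh-Kap1, the knockdown) or against luciferase (sh-Luc, the control). KAP1, encoded by Trim28, is a scaffold protein that brings chromatin-modifying enzymes to transcription factors, and the series title places it with the muscle factor MyoD. Differentiating cells (MT) had spent 48 hours in medium with 2% horse serum and insulin-transferrin-selenium, and each of MT knockdown and MT control is 1 library. Proliferating myoblasts (MB) grew in medium with 10% fetal calf serum, with 2 libraries of MB knockdown and 2 of MB control. Cytoplasmic polyA RNA was sequenced. Differentiation and the change of serum and insulin coincide in this design and cannot be told apart. Whether the replicates were separate cultures is not in the labels, and p-values therefore measure a spread that may be technical.

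Cells make cholesterol from acetyl-CoA by way of mevalonate, isoprenoid diphosphates, squalene and lanosterol, and fatty acids by way of malonyl-CoA. The enzymes of both routes are classic targets of the SREBP transcription factors, encoded by Srebf1 and Srebf2. When membrane sterol is low, the escort protein SCAP carries the SREBP precursor from the endoplasmic reticulum to the Golgi, where it is cleaved and released. INSIG proteins hold SCAP back when sterol is plentiful, and serum lipoproteins and insulin are known inputs to this control.

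The libraries held 36247530 to 49839994 counts on genes. CPM divides by this total times a TMM scaling factor, from 0.972 in MT control to 1.07 in MT knockdown. On that scale 3 counts are worth 0.0619 to 0.0775 CPM. Trim28 stood at 114 CPM in MT knockdown against 393 CPM in MT control, and at 150 and 102 CPM in MB knockdown (replicates 1 and 2) against 596 and 428 CPM in MB control. Every knockdown library thus lay below every control library. The file names of both MT libraries and of replicate 1 of both MB groups share a mark that those of replicate 2 lack, and its meaning is not given in the labels. Over the 16472 genes, the difference between replicates 2 and 1 in MB knockdown correlated with that in MB control at r = 0.762, a description over genes and not over replicates. Tests were made with a mean per group (the group-mean fit, the primary one) and again with a term for the mark (the fit with a replicate block). Calls of the second, an alternative, are described because earlier work on these data had shown that the first calls no gene. The group-mean fit (edgeR) called 0 of all genes in every comparison at an adjusted p of 0.05. At an unadjusted p of 0.05 it held 454 genes for the knockdown in MB, 1383 for the knockdown in MT, 4174 for MT against MB in control cells, 2511 for the same in knockdown cells and 825 for the difference between stages, and DESeq2 without the block called 52, 368, 2384, 843 and 166. The verbs "rose" and "fell" below refer to the fit with the replicate block. That fit has 1 residual degree of freedom, which comes from the MB libraries. It steadies the spread of each gene with that of all genes. With 1 MT library per arm, the MT comparisons have no replicate check of their own. In both fits their SE and p-values borrow the spread of the MB libraries and measure no spread between MT libraries.

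Per kilobase of exon, the level of these genes in MB control spanned a wide range. The length is the union of all annotated exons of a gene, and the order of the genes depends on it. Scd2, a stearoyl-CoA desaturase that makes monounsaturated fatty acids, was highest at 365 CPM per kb on average, followed by its paralog Scd1 at 103 CPM per kb. Acly, which makes cytosolic acetyl-CoA from citrate, Acat2, the thiolase at the head of the mevalonate route, Fdps, which makes farnesyl diphosphate, and Sqle, the squalene epoxidase, lay together between 67.0 and 71.9 CPM per kb. Srebf2 stood at 62.0 CPM per kb and Srebf1 at 21.97 CPM per kb. The lowest were Scap, at 6.74 CPM per kb, and Tm7sf2, a sterol reductase, at 2.68 CPM per kb. Scd2 lay above, and Tm7sf2 below, all other genes in both replicates. Among the genes between them, the replicates of neighbours in this order overlapped, except that Fdft1 lay above Srebf1 and Ebp above Lss.

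The 2 MB replicates differed widely for these genes. In MB, 29 of 31 genes were higher in replicate 2 than in replicate 1 in knockdown and control cells alike, a pattern shown by 39.0% of all genes tested. The exceptions were Scap and Fasn. The median log2 difference of replicate 2 minus replicate 1 was 1.03 in MB knockdown and 0.73 in MB control, against 0.0041 and 0.0061 over all genes tested. A difference over 2-fold in both groups was seen for 10 of 31 genes, against 4.10% of all genes. Scd1, Scd2, Fdps, Insig1, Lss and Tm7sf2 were among them. Lists of neighbouring pathways had smaller medians in the same libraries. For 20 other lipid synthesis genes they were 0.40 in MB knockdown and 0.22 in MB control, with 16 and 14 of the 20 higher in replicate 2. Of all 16472 genes tested, 8296 were higher in replicate 2 in MB knockdown and 8325 in MB control. The medians were 0.18 in MB knockdown and 0.09 in MB control for 15 SREBP processing factors, 0.17 and 0.06 for 11 genes of the isoprenoid branch, and 0.18 and 0.11 for 21 fatty acid oxidation genes. What moved with the replicates besides these genes includes the summed CPM of 7 differentiated muscle markers, at 72.5 and 128 in replicate 2 of MB knockdown and control, against 11.9 in replicate 1 of each. Their part in the difference was not tested.

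**Figure D1:**
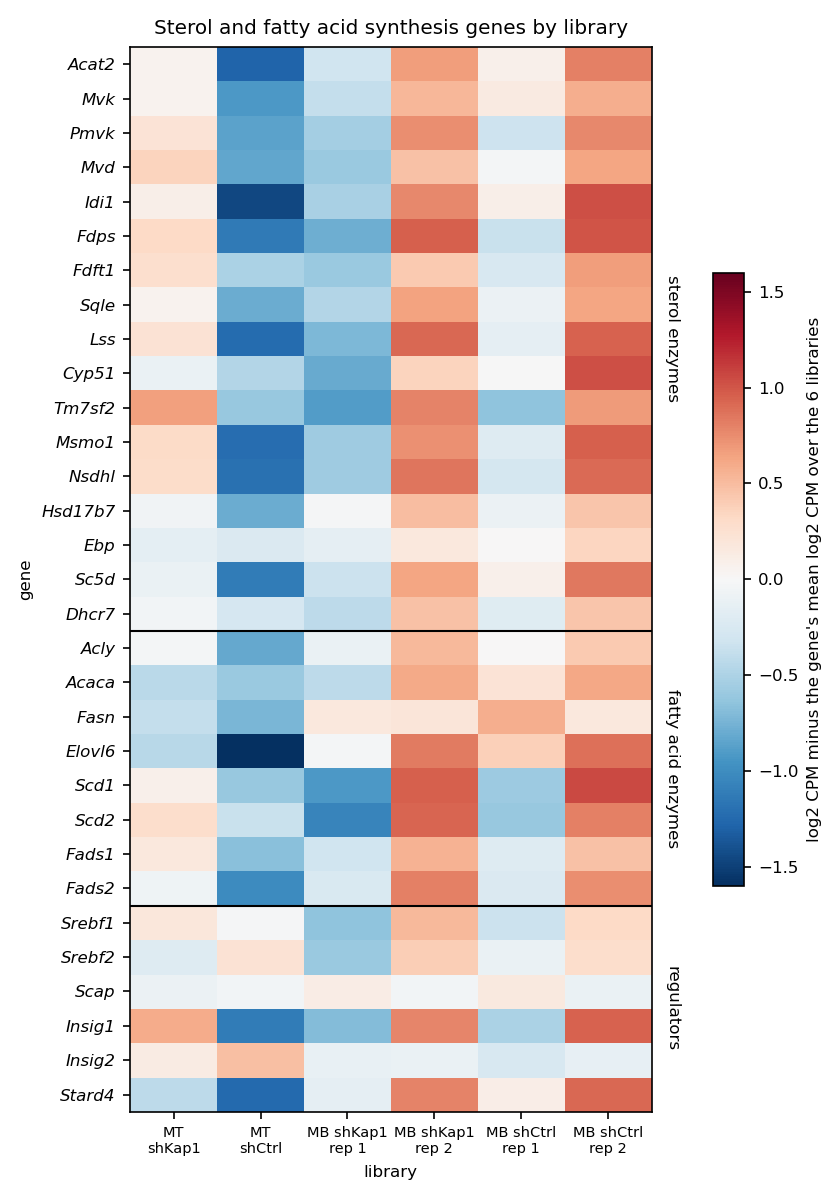
Level of 31 genes in each of the 6 libraries, as log2 CPM minus the gene's mean over the libraries (colour scale), grouped by role. The MT control column is the lowest of the 6 for 21 genes, and the replicate 2 columns of both MB groups are above their replicate 1 columns for 29 genes.

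In differentiating cells, most enzymes of both routes were higher in MT knockdown than in MT control. Of 31 genes, 28 were higher and 12 were higher by more than 2-fold, against 51.8% and 6.96% of all genes tested. In the fit with the replicate block 21 rose and 0 fell, where 9.09% of all genes rose and 11.2% fell. The median log2 change of the 31 genes was 0.84, against 0.018 over all genes. The group-mean fit gave the same median of 0.84 for these genes but called 0 of them, with 0 at an unadjusted p of 0.05. DESeq2 without the block called 0 of them, where it called 0.364% of all genes higher and 1.87% lower.

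Of the 6 regulators, Insig1 and Stard4 rose with the knockdown in MT and 0 fell, against 9.09% and 11.2% of all genes. Insig1 (ENSMUSG00000045294), the INSIG gene that is itself an SREBP target, stood at 157 CPM in MT knockdown and 47.6 CPM in MT control, at 64.0 and 178 CPM in MB knockdown (replicates 1 and 2), and at 73.2 and 199 CPM in MB control. MT control was the lowest of the 6 libraries and MT knockdown lay near the replicate 2 myoblasts. Its change in MT was the largest of the 31 genes in that fit, a log2 change of 1.72 (SE 0.13, adjusted p = 1.62e-05), or 3.3-fold. Insig2 (ENSMUSG00000003721), the other INSIG gene, which is not a classic SREBP target, was at 74.5 CPM in MT knockdown and 95.5 CPM in MT control, at 62.7 and 63.6 CPM in MB knockdown, and at 56.9 and 62.5 CPM in MB control. Both MT libraries lay above all 4 MB libraries. Its log2 change with the knockdown in MT was -0.36 (SE 0.13, adjusted p = 0.0853), short of the threshold. Per kilobase, the ratio of Insig1 to Insig2 was 2.37 in MT knockdown and 0.56 in MT control, 1.15 and 3.14 in MB knockdown, and 1.44 and 3.58 in MB control, so that Insig2 was the higher of the pair only in MT control.

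The SREBP genes themselves did not pass the test for the knockdown in MT. Srebf2, whose protein acts mainly on sterol genes, was at 359 CPM in MT knockdown and 489 CPM in MT control, at 276 and 545 CPM in MB knockdown, and at 387 and 504 CPM in MB control. The MT difference ran opposite to that of the sterol enzymes, at a log2 change of -0.44 (SE 0.21, adjusted p = 0.208). Srebf1, whose protein acts mainly on fatty acid genes, was at 139 CPM in MT knockdown and 120 CPM in MT control, at 77.7 and 174 CPM in MB knockdown, and at 96.1 and 152 CPM in MB control. Its groups overlapped and its log2 change in MT was 0.21 (adjusted p = 0.467). Scap was the flattest gene, between 45.6 and 54.7 CPM in the 6 libraries, although 13.2% of its exon bases overlap a transcript on the other strand. Stard4, which carries cholesterol between membranes inside the cell and is itself sterol-regulated, rose with the knockdown in MT by 0.84 on the log2 scale (adjusted p = 0.00214), with 50.1 CPM in MT knockdown and 28.1 CPM in MT control. Both MT values lay below the MB libraries, which held 60.1 and 115 CPM in MB knockdown and 71.8 and 126 CPM in MB control.

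**Figure D2:**
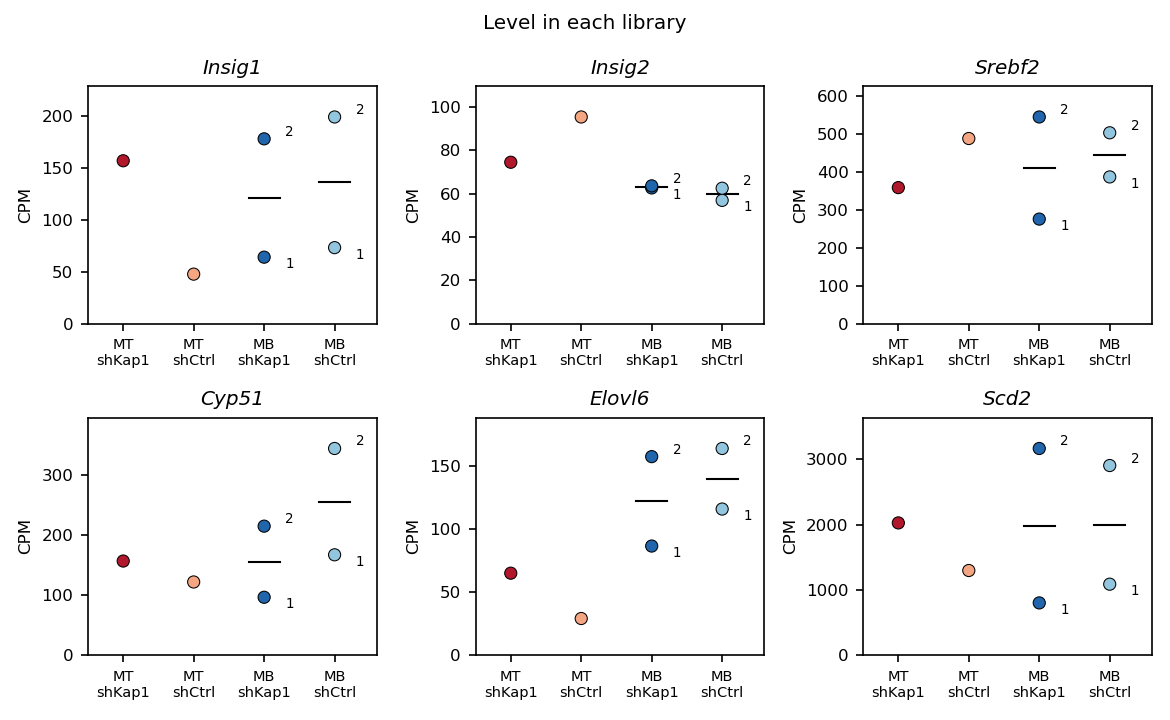
CPM of 6 genes in each library (points), with MT knockdown and MT control as 1 library each and the MB replicates marked 1 and 2 (bars, mean of the 2). Insig1 and Elovl6 are lowest in MT control, Insig2 is highest there at 95.5 CPM, and Cyp51 is lower in MB knockdown than in the MB control library of the same number.

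Among the 17 sterol enzymes with values, 14 rose with the knockdown in MT and 0 fell, against 9.09% and 11.2% of all genes. The median log2 change of the 17 was 1.07. On the steps up to farnesyl diphosphate all 6 genes with values rose. Idi1, the isomerase that makes the starter unit of isoprenoids, was at 103 CPM in MT knockdown and 34.97 CPM in MT control, at 67.3 and 163 CPM in MB knockdown, and at 103 and 196 CPM in MB control. It rose 2.93-fold in MT (log2 1.55, SE 0.16, adjusted p = 0.000125). Fdps was at 253 CPM in MT knockdown and 92.6 CPM in MT control, at 118 and 395 CPM in MB knockdown, and at 159 and 410 CPM in MB control, a rise of 2.73-fold in MT. Its counts are uncertain, since 26.7% of its exon bases overlap another annotated gene on the same strand. Acat2, at 131 CPM in MT knockdown and 51.5 CPM in MT control, rose 2.54-fold, while the MB libraries held 101 and 199 CPM in knockdown and 133 and 219 CPM in control. Mvd was at 31.99 CPM in MT knockdown and 14.0 CPM in MT control, at 16.5 and 34.5 CPM in MB knockdown, and at 24.4 and 38.6 CPM in MB control. It codes for the mevalonate diphosphate decarboxylase and rose 2.29-fold. The phosphomevalonate kinase gene Pmvk was at 32.9 CPM in MT knockdown and 15.7 CPM in MT control, at 19.4 and 47.4 CPM in MB knockdown, and at 22.5 and 48.3 CPM in MB control, and rose 2.1-fold. In each of these genes MT control was the lowest library and MT knockdown lay between the MB knockdown replicates.

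Past squalene, the enzymes that trim lanosterol differed among themselves. Msmo1, the methylsterol oxidase, was at 108 CPM in MT knockdown and 37.7 CPM in MT control, at 58.9 and 145 CPM in MB knockdown, and at 75.5 and 169 CPM in MB control. It rose 2.87-fold in MT (log2 1.52, SE 0.14, adjusted p = 4.48e-05). Nsdhl, the sterol dehydrogenase that acts with it in the same demethylation, was at 108 CPM in MT knockdown and 38.6 CPM in MT control, at 59.3 and 159 CPM in MB knockdown, and at 72.5 and 164 CPM in MB control, and rose 2.79-fold. Both genes were lowest in MT control. Sc5d, a late sterol desaturase, rose 2.01-fold, with 29.3 CPM in MT knockdown and 14.6 CPM in MT control, 24.9 and 48.9 CPM in MB knockdown, and 33.5 and 56.6 CPM in MB control. Lss, Tm7sf2, Mvk, Sqle, Fdft1 and Hsd17b7 also rose, by log2 changes of 0.74 to 1.45 in MT. Of these, Fdft1 shares 18.3% and Tm7sf2 12.1% of exon bases with a neighbouring gene. Cyp51, the lanosterol demethylase, Ebp, the sterol isomerase, and Dhcr7, the reductase that makes cholesterol, did not pass in MT, with log2 changes of 0.36, 0.07 and 0.23.

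In fatty acid synthesis 5 of 8 genes rose with the knockdown in MT and 0 fell, against 9.09% and 11.2% of all genes. The median log2 change of the 8 was 0.74. Elovl6, which lengthens the product of fatty acid synthase, was at 65.0 CPM in MT knockdown and 29.0 CPM in MT control, at 86.6 and 158 CPM in MB knockdown, and at 116 and 164 CPM in MB control. It rose 2.24-fold, and both MT libraries lay below all 4 MB libraries. Fads2, a desaturase of polyunsaturated fatty acids, was at 119 CPM in MT knockdown and 62.0 CPM in MT control, at 106 and 218 CPM in MB knockdown, and at 107 and 209 CPM in MB control, and rose 1.92-fold. Its partner Fads1 rose by 0.83 and Acly by 0.78 on the log2 scale. Scd1 was at 388 CPM in MT knockdown and 240 CPM in MT control, at 193 and 711 CPM in MB knockdown, and at 245 and 760 CPM in MB control, and rose 1.62-fold (adjusted p = 0.00895). Scd2 was at 2026 CPM in MT knockdown and 1296 CPM in MT control, at 799 and 3168 CPM in MB knockdown, and at 1086 and 2907 CPM in MB control, and missed the threshold (log2 0.64, SE 0.20, adjusted p = 0.0611). Scd1 and Scd2 are similar in sequence, and how reads shared by both were counted is not given in the labels. Their ratio per kilobase, Scd2 over Scd1, was 4.68 in MT knockdown and 4.84 in MT control, 3.72 and 3.99 in MB knockdown, and 3.98 and 3.42 in MB control. Acaca, which makes malonyl-CoA, and Fasn, the fatty acid synthase, had log2 changes of 0.16 and 0.34 in MT and did not pass.

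**Figure D3:**
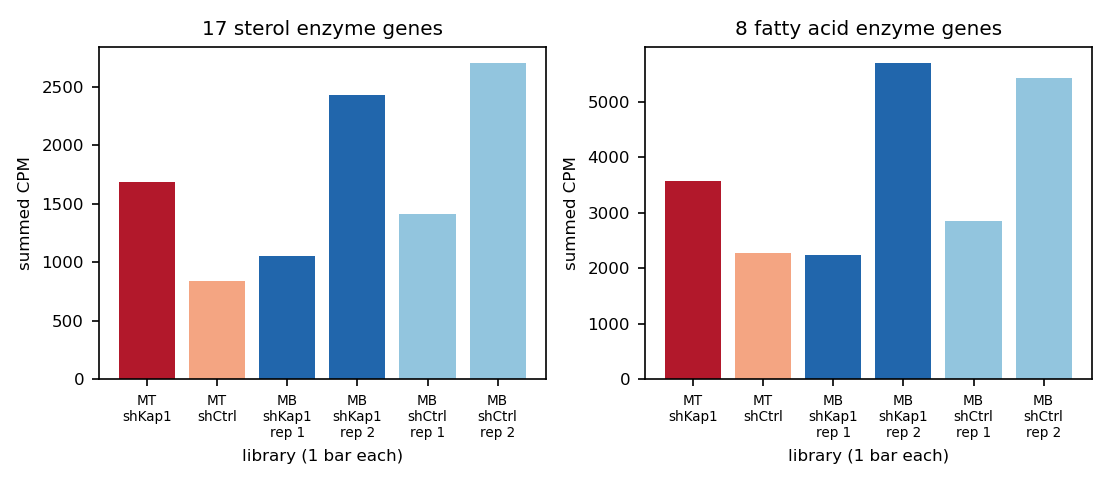
Summed CPM of 17 sterol enzyme genes (left) and 8 fatty acid enzyme genes (right), 1 bar per library. The sterol sum was 1688 in MT knockdown and 840 in MT control, 1052 and 2432 in MB knockdown (replicates 1 and 2), and 1412 and 2706 in MB control. The fatty acid sum was 3569 in MT knockdown and 2283 in MT control, 2231 and 5700 in MB knockdown, and 2848 and 5434 in MB control. Of the fatty acid sum Scd2 alone held 2026 CPM in MT knockdown and 1296 CPM in MT control. In MB it held 799 and 3168 CPM in knockdown and 1086 and 2907 CPM in control.

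Promoter windows of the genes were searched, as a description only. RefSeq (build GRCm38.p6) gives the 250 bases before each annotated start for 25 of the 32 genes, matched by symbol, and both strands were searched. The 25 include Hmgcs1, which has no expression values. They have 33 windows, and a gene was counted when any of its windows held the motif. For 29 of the 33, bases after the start lay in a transcript of the gene. Insig2, Dhcr7 and Pmvk held CCAAT in only 1 of their windows. The box CCAAT, bound by NF-Y, a partner of SREBP, was found for 19 of the 25 genes, against 40.4% of the 11024 tested genes with a window. The Sp1 box GGGCGG was found for 21 of 25, against 61.3%. The E-box CACGTG was found for 5 of 25, against 9.50%. A sterol regulatory element spelled TCACCCCAC was exact in 1 gene, Hmgcs1, against 0.626%, and with at most 1 mismatch it was found for 5 of 25 (Acat2, Hmgcs1, Hsd17b7, Nsdhl and Srebf2), against 10.9%. The longer box ATCACGTGA was found for 0 of 25, against 0.599%. The windows below belong to the 4 genes with the largest change in MT and to Cyp51, which passed in MB and not in MT, with CCAAT or its complement ATTGG and the E-box in capitals. They lie at chr5:28071162-28071411 (plus strand) for Insig1, chr13:8885356-8885605 (plus) for Idi1, chr8:64733579-64733828 (minus) for Msmo1, chrX:72918271-72918520 (plus) for Nsdhl and chr5:4104698-4104947 (minus) for Cyp51, and each is written 5′ to 3′ towards the gene.
Insig1: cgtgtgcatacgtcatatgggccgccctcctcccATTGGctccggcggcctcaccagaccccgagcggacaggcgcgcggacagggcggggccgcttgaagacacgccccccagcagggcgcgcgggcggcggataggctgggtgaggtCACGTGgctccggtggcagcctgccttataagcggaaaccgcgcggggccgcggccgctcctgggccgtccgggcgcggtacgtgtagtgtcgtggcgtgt
Idi1: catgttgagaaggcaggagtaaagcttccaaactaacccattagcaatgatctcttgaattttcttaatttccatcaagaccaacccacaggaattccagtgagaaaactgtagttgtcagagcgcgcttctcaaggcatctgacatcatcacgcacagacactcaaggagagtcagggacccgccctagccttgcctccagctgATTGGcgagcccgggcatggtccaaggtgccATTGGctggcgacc
Msmo1: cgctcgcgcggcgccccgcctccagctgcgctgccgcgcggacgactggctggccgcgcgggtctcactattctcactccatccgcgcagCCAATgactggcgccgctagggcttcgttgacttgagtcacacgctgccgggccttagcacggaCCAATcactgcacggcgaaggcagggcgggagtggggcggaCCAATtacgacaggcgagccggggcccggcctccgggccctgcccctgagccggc
Nsdhl: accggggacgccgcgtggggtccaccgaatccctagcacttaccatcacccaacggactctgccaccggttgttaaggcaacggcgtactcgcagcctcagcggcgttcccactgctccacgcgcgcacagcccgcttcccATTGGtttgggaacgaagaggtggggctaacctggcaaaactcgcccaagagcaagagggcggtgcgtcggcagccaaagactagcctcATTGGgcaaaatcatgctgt
Cyp51: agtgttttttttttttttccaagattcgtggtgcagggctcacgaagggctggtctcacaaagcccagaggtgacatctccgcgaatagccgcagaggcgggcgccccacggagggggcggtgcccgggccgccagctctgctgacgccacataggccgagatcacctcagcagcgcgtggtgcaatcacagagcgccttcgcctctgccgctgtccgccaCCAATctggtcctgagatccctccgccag
Msmo1 held 3 CCAAT boxes, at 160, 96 and 55 bases before the start, Idi1 and Nsdhl 2 each, and Insig1 and Cyp51 1 each. In the Cyp51 window the box lay 29 bases before the start.

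In proliferating myoblasts the differences between knockdown and control were small, and 1 gene passed. Cyp51 (ENSMUSG00000001467) was at 96.0 and 214 CPM in MB knockdown (replicates 1 and 2), against 167 and 343 CPM in MB control, and at 156 CPM in MT knockdown against 121 CPM in MT control. Each MB knockdown library lay below the control library of its number, although the groups overlapped. The log2 change in MB was -0.74 (SE 0.10, adjusted p = 0.00268). In that fit 0 of 31 genes rose and 1 fell in MB, where 2.51% of all genes rose and 1.34% fell. The median was -0.19, against -0.0069 over all genes. The group-mean fit called 0 of 31, 0 at an unadjusted p of 0.05, and DESeq2 without the block called 0, where it called 0.237% of all genes higher and 0.0789% lower.

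Idi1, at a log2 change of -0.43 (adjusted p = 0.0585), came nearest of the others. In MB, knockdown was below control in both replicate pairs for 18 of 31 genes, a pattern of 32.2% of all genes, and it was below control without overlap for 0 of 31, against 13.1%. The replicate pairs were unequal. In the replicate 1 pair 29 of 31 genes were lower in knockdown, with a median log2 difference of -0.35, and in the replicate 2 pair 18 of 31 were lower, with a median of -0.03. Of the fatty acid genes 8 of 8 were lower in the replicate 1 pair and 3 of 8 in the replicate 2 pair.

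**Figure D4:**
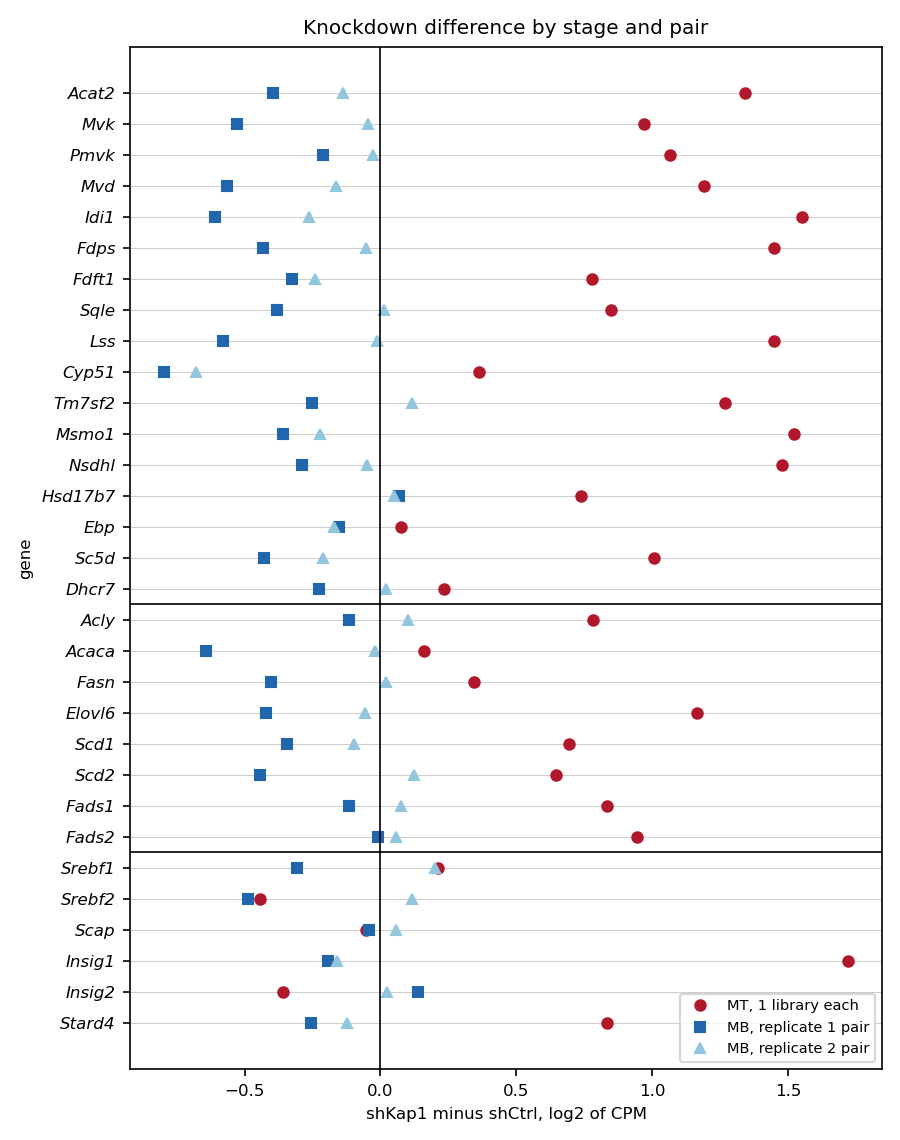
Knockdown minus control as log2 of CPM for 31 genes, in MT (circles, 1 library each), in the MB replicate 1 pair (squares) and in the MB replicate 2 pair (triangles). The MT circles lie above 0 for 28 genes, whereas the squares lie below 0 for 29 genes and the triangles for 18.

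The difference between the stages was tested as the knockdown effect in MT minus that in MB. It was positive for 28 of 31 genes, against 8458 of all 16472 genes in the fit with the replicate block. In the fit with the replicate block 22 passed above 0 and 0 below, where 3.82% of all genes passed above and 6.63% below, with a median log2 difference of 1.03 against 0.016 over all genes. Sterol enzymes made up 15 of the 22, fatty acid enzymes 5 and regulators 2. Idi1 was the largest at 1.99 (SE 0.19, adjusted p = 0.000171), with Insig1 at 1.90 and Msmo1 at 1.81. Cyp51 was among the 22, at 1.10 (SE 0.17, adjusted p = 0.00235). Srebf1, Srebf2, Scap and Insig2 did not pass. Without the block the median was 1.01, and 0 of 31 were called, 0 at an unadjusted p of 0.05, and 0 by DESeq2, where it called 0.115% of all genes higher and 0.892% lower. The knockdown effects in MT and MB share no library, but each MT value is 1 library. The difference between stages contains the knockdown effect in MT, so the results of both are not independent.

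Set against myoblasts, control cells in differentiation medium held less RNA of most enzymes. MT control was the lowest of all 6 libraries for 21 of 31 genes, against 24.5% of all genes, and it was below both MB control libraries for 25 of 31, against 40.6%. In the fit with the replicate block 21 genes fell and 1 rose in MT control relative to MB control, where 22.6% of all genes fell and 22.3% rose, with a median of -0.66 against -0.013 over all genes. For these counts the block in effect sets MT control against a replicate 1 level of MB control, since replicate 2 has no MT partner. That level is fitted from all MB libraries and is not the replicate 1 library itself. This comparison shares the MT control library with the knockdown comparison in MT, so the results of both are not independent. The median difference was -0.70 from MB control replicate 1 and -1.46 from replicate 2. The group-mean fit called 0 of 31, with 9 at an unadjusted p of 0.05, and DESeq2 without the block called 7, of which 1 was higher and 6 were lower, where it called 7.84% of all genes higher and 6.63% lower.

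Elovl6 fell in control cells by 1.91 on the log2 scale in that fit (SE 0.15, adjusted p = 8.9e-06), further than any other of the 31. Between single libraries its log2 difference was -2.00 from MB control replicate 1 and -2.50 from replicate 2. Idi1, Stard4, Acat2, Sc5d, Msmo1, Nsdhl and Fads2, whose levels are given above, fell too, at log2 changes of -1.47, -1.32, -1.30, -1.15, -0.97, -0.85 and -0.77. Fasn was at 334 CPM in MT knockdown and 263 CPM in MT control, at 492 and 497 CPM in MB knockdown, and at 651 and 490 CPM in MB control. Both MT libraries lay below all 4 MB libraries, and Fasn fell in control cells by 1.20 (adjusted p = 0.000326) and in knockdown cells by 0.67 (adjusted p = 0.0123) on the log2 scale. Acly was at 317 CPM in MT knockdown and 184 CPM in MT control, at 301 and 465 CPM in MB knockdown, and at 326 and 433 CPM in MB control, and fell by 0.77 in control cells. Hsd17b7, a sterol ketone reductase, fell by 0.70, with 36.8 CPM in MT knockdown and 22.1 CPM in MT control, 37.6 and 53.9 CPM in MB knockdown, and 35.9 and 52.0 CPM in MB control. The other 10 that fell had log2 changes between -0.95 and -0.42. Insig2 rose, by 0.72 (SE 0.12, adjusted p = 0.00097). Srebf1 and Srebf2 had positive log2 changes of 0.44 and 0.48 with adjusted p of 0.0634 and 0.0926, and Scd1 and Scd2 of 0.03 and 0.39.

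The same comparison in knockdown cells depended on which myoblast library it was set against. In the fit with the replicate block 15 of 31 genes rose and 2 fell (Fasn and Elovl6), where 16.6% of all genes rose and 16.5% fell, with a median of 0.43 against 0.016 over all genes. The group-mean fit gave the opposite direction, with a median of -0.13 against -0.0051 over all genes and 22 of 31 genes below 0. Of all 16472 genes, 8289 were below 0 in that fit. Tm7sf2 was at 16.6 CPM in MT knockdown and 6.89 CPM in MT control, at 5.66 and 18.3 CPM in MB knockdown, and at 6.75 and 16.9 CPM in MB control. It had the largest rise in knockdown cells, a log2 change of 1.45 (SE 0.19, adjusted p = 0.000441). Fdft1, the squalene synthase, was at 173 CPM in MT knockdown and 100.5 CPM in MT control, at 95.3 and 192 CPM in MB knockdown, and at 119 and 227 CPM in MB control, and rose by 0.84 on the log2 scale. In both genes MT knockdown lay between the MB knockdown replicates. Insig1 rose by 1.29, Scd2 by 1.19, Mvd by 0.85, Msmo1 by 0.84, Cyp51 by 0.67 and Srebf1 by 0.70 (adjusted p = 0.016), each also above 0 in the group-mean fit. The other 7 that rose (Pmvk, Idi1, Fdps, Lss, Nsdhl, Scd1 and Fads1) were below 0 there. From MB knockdown replicate 1 the median difference of MT knockdown was 0.49, with 24 of 31 genes higher. From replicate 2 it was -0.55, with 30 of 31 lower. Of all 16472 genes tested, 8481 were higher than in replicate 1 and 8066 lower than in replicate 2. MT knockdown lay between the MB knockdown replicates for 23 of 31 genes, against 24.5% of all genes. The group-mean fit called 0 of 31, 0 at an unadjusted p of 0.05, and DESeq2 without the block called 0, where it called 2.17% of all genes higher and 2.94% lower. For control cells the sign was negative against either replicate.

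Other genes around the pathway were counted as lists, and their medians with the knockdown in MT were smaller. Of 15 SREBP processing factors and cofactors, 0 rose and 1 fell with the knockdown in MT, with a median log2 change of -0.07. It was Fbxw7, part of a ubiquitin ligase that marks nuclear SREBP for breakdown, at -0.71 (adjusted p = 0.0124). Of all genes 9.09% rose and 11.2% fell there. In control differentiation 4 of the 15 rose and 4 fell, where 22.3% of all genes rose and 22.6% fell, among them Tmem97, a sterol-regulated membrane protein, at -0.90, Erlin1 at -0.75 and Fbxw7 at 0.77. Of 20 other lipid synthesis genes tested, 4 rose and 1 fell with the knockdown in MT, against the same 9.09% and 11.2%, with a median of 0.24. Those that rose were the mitochondrial citrate carrier Slc25a1 by 0.70, the malic enzyme Me1 by 0.67, the acetoacetyl-CoA synthetase Aacs by 0.58, and Mid1ip1, which activates acetyl-CoA carboxylase, by 0.73. Agpat3, an acyltransferase of phospholipid synthesis, fell by 0.81. Slc25a1, at 65.8 CPM in MT knockdown and 40.4 CPM in MT control, was at 45.6 and 80.9 CPM in MB knockdown and 45.3 and 80.7 CPM in MB control. In the isoprenoid branch, which draws on the same farnesyl diphosphate, 0 of 11 genes rose or fell with the knockdown in MT, with a median of -0.16.

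Other properties of the libraries moved with the same groups. The 5 myoblast markers summed to 748 CPM in MT knockdown and 1790 CPM in MT control, to 381 and 1024 CPM in MB knockdown, and to 499 and 916 CPM in MB control. Most of this came from Des, at 517 CPM in MT knockdown and 1244 CPM in MT control. Of the 5, 1 was higher in MT knockdown than in MT control. It was Myf5, at 77.1 CPM in MT knockdown and 35.8 CPM in MT control. Pax7, the satellite cell factor, held 1 count in 3 of the 4 MB libraries, under the floor of 3 counts, and the other 4 were above it in every library. The summed CPM of 7 differentiated muscle markers was 108 in MT knockdown and 6916 in MT control, 11.9 and 72.5 in MB knockdown, and 11.9 and 128 in MB control. In a bulk sample, fewer differentiated cells and less muscle RNA per cell cannot be told apart. MT control, the library highest in muscle RNA, was the lowest in sterol enzyme RNA. Within MB, replicate 2 was the higher in both. Its sterol sums were 2432 and 2706 CPM in knockdown and control, against 1052 and 1412 CPM in replicate 1. The fatty acid sum was lowest in MB knockdown replicate 1, at 2231 CPM against 2283 CPM in MT control. The part of the muscle markers in the lipid results was not tested. The 12 proliferation genes summed to 1564 CPM in MT knockdown and 1566 CPM in MT control, and to 3101 to 3942 CPM in the MB libraries. The 6 fibroblast and smooth muscle markers summed to 12010 CPM in MT knockdown and 15285 CPM in MT control, to 11295 and 8000 CPM in MB knockdown, and to 6423 and 5006 CPM in MB control. Most of that sum came from Col1a1 and Acta2, and 3 of the 6 were higher in MT knockdown than in MT control. These were Cnn1, at 53.4 CPM in MT knockdown and 5.28 CPM in MT control, Tagln, at 716 CPM in MT knockdown and 288 CPM in MT control, and Pdgfra, at 45.4 CPM in MT knockdown and 39.8 CPM in MT control. The 8 adipocyte markers summed to 38.8 CPM in MT knockdown and 20.1 CPM in MT control and to 35.2 to 70.5 CPM in MB. Adipoq and Lep were at 0 in every library, and Plin1 and Cidec were under the floor. The 4 that were tested, Pparg, Fabp4, Cebpa and Plin4, were all higher in MT knockdown than in MT control, with a median log2 difference of 0.88, and none was called with the replicate block (smallest adjusted p = 0.0932). The part of these markers in the lipid results was not tested. Hepatocyte markers were at or below 0.0633 CPM in sum.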

How the data were processed

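RNA was sequenced from 6 C2C12 libraries. The deposited files hold raw read counts, 1 whole number for each Ensembl gene. The submitters' processing notes name TopHat2 2.0.11, HTSeq and the mm9 genome. Annotation release, strand setting and counting mode are not given in these sources, so genes with overlapping exons are uncertain. In each file 5 lines without a gene were left out (reads in no gene 5.18% to 8.07%, ambiguous 2.81% to 2.93%). Symbols, exon lengths and overlaps came from a later mouse annotation matched on Ensembl identifiers (32919 matched, 99.0% of counts).

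The quasi-likelihood test of edgeR 4.0.16 (R 4.3.3; robust, TMM, filterByExpr) was applied to all 6 libraries in 1 fit, with Benjamini-Hochberg adjustment over 16472 genes; the SE is the log2 change divided by the root of F. Log2 differences between single libraries add 0.5 counts. The fit without a block is the primary one. The fit with a replicate block takes its pairing from the file-name mark; replicate 2 minus replicate 1 correlated between the 2 MB groups (r = 0.762, rho = 0.681), and the coefficient of variation was 32.9% without and 9.74% with the block. DESeq2 1.42.0, other scalings, no filter and leaving out MB libraries were alternatives. The script was tested on simulated data. Counting floors cover counting error only.

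All 32 genes are named. Values in every library are given for the regulators, Stard4, Scd1, Scd2 and, for the knockdown in MB, the knockdown in MT and MT against MB in control cells, genes past the threshold, at most the 12 with the smallest p; Tm7sf2 and Fdft1 were added after their values were seen. Of each other list, up to 4 with the smallest p. Members, lists (SREBP processing, other lipid synthesis, isoprenoid branch, sterol handling and LXR, fatty acid oxidation, proliferation, cell type markers) and the description of the blocked fit were chosen with earlier results of these data known.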

Additional observations from a re-analysis of the deposited data

Results flagged for a closer look

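The knockdown effect differed between the stages for 22 of the 31 genes, by the test of the difference itself in the fit with the replicate block (edgeR, adjusted p from 6.39e-05 to 0.0264). All 22 had a higher MT knockdown effect than MB knockdown effect. In the fit with the block 3.82% of all genes passed above 0 and 6.63% below. The group-mean fit called none of the 22. Among sterol enzymes the log2 difference was 1.99 for Idi1, 1.81 for Msmo1, 1.74 for Lss, 1.69 for Fdps, 1.65 for Nsdhl, 1.61 for Acat2, 1.55 for Mvd, 1.33 for Sc5d, 1.33 for Tm7sf2, 1.25 for Mvk, 1.18 for Pmvk, 1.10 for Cyp51, 1.06 for Fdft1, 1.03 for Sqle and 0.68 for Hsd17b7. Among fatty acid enzymes it was 1.40 for Elovl6, 0.92 for Fads2, 0.91 for Scd1, 0.85 for Fads1 and 0.79 for Acly. Of the regulators, Insig1 differed by 1.90 and Stard4 by 1.02. Each MT value rests on 1 library, so the difference has no replicate check in MT. It reuses the MT libraries of the knockdown comparison in MT, so the results of both are not independent.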

How the results depend on the processing

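The pairing was modelled as a replicate block, which moved the number of genes called from 0 to 1 for the knockdown in MB, 21 for the knockdown in MT, 22 for MT against MB in control cells, 17 in knockdown cells and 22 for the difference between stages. Of all 16472 genes the same block called 633, 3344, 7398, 5446 and 1722. With DESeq2 size factors added to the block, 1, 21, 21, 17 and 22 of the 31 genes were called. With total library size these were 1, 23, 22, 20 and 22. With DESeq2 in place of edgeR they were 1, 22, 19, 15 and 21, where 329, 1542, 4291, 2918 and 958 of all genes were called. The 21 genes called for the knockdown in MT were called in these 3 settings too; total library size added Scd2 and Cyp51, and DESeq2 added Scd2. DESeq2 without the block called 7 in MT against MB control, and every other setting without the block, leaving out each MB library included, called 0 (0 to 0). With the block no residual degree of freedom remains once a library is left out, and the lone MT libraries cannot be left out, so neither was run. Total library size moved the median log2 change of all genes with the knockdown in MT to 0.155 and that of the 31 genes to 0.97. The median change of the 31 genes with the knockdown in MB ran from -0.80 without MB knockdown replicate 2 and -0.50 without MB control replicate 1 to 0.28 without MB control replicate 2 and 0.29 without MB knockdown replicate 1. For the difference between stages it ran from 0.51 to 1.73. Over the 31 genes the block changed the sign of 15 in MT against MB in knockdown cells, 4 in control cells, 4 for the knockdown in MB, and 0 for the knockdown in MT and the difference between stages; the cause was not tested. The 15 (Mvk, Pmvk, Idi1, Fdps, Sqle, Lss, Nsdhl, Sc5d, Dhcr7, Acat2, Srebf2, Scd1, Acly, Fads1 and Fads2) were at -0.44 to -0.01 in the group-mean fit and 0.0192 to 1.00 with the block, which called 7 of them. The 4 in MB (Tm7sf2, Srebf1, Acly and Fads1) were at 0.00568 to 0.0236 without the block and -0.0553 to -0.00699 with it. None was called in the group-mean fit. Genes whose change is given in the text changed sign under other settings as follows. In MT against MB control, 4 genes were below 0 in the group-mean fit and above it with the block, with DESeq2 size factors and the block, with total library size and the block, and with DESeq2 and the block: Scd1 at 0.0324, 0.0659, 0.00613 and 0.0659, Scd2 at 0.39, 0.42, 0.36 and 0.42, Tm7sf2 at 0.13, 0.16, 0.10 and 0.16, and Srebf1 at 0.44, 0.47, 0.41 and 0.47. Leaving out an MB library there gave -1.16 to 0.27 for Scd2, -1.29 to 0.0442 for Tm7sf2, -0.34 to 0.33 for Srebf1 and -0.0435 to 0.35 for Srebf2. In MT against MB knockdown, Fdps was above 0 with total library size (0.085) and with the block in the same 4 settings (1.00, 1.00, 1.08 and 1.00), and with no filter on low counts Scd2 was at -0.00781 and Cyp51 at -0.0300. Leaving out a library there gave -0.64 to 1.10 for Fdps, -0.64 to 1.34 for Scd2, -0.13 to 1.55 for Tm7sf2, -0.18 to 1.29 for Insig1, -0.15 to 0.86 for Fdft1, -0.33 to 0.83 for Srebf1, -0.42 to 0.88 for Msmo1, -0.11 to 0.96 for Mvd and -0.45 to 0.70 for Cyp51. For the knockdown in MB it gave -1.15 to 0.16 for Idi1. Read depth was ample for all 31 genes, the lowest at 5.66 CPM, and the number of libraries limits the precision.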

Other observations

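Of 16 genes that handle sterol rather than make it, 6 rose and 1 fell in control cells between MB and MT in the fit with the replicate block, where 22.3% of all genes rose and 22.6% fell. In knockdown cells 6 rose and 2 fell, where 16.6% of all genes rose and 16.5% fell. Abca1, the cholesterol exporter and an LXR target, was at 4.54 CPM in MT knockdown and 2.23 CPM in MT control and at 0.162 to 0.378 CPM in the 4 MB libraries. It rose by 4.23 in knockdown cells (adjusted p = 8.88e-05) and by 2.45 in control cells (adjusted p = 0.00113) on the log2 scale. With the knockdown in MT 1 of the 16 rose and 3 fell, where 9.09% of all genes rose and 11.2% fell. Ch25h, the cholesterol hydroxylase that makes an oxysterol, was at 3.49 CPM in MT knockdown and 17.5 CPM in MT control, and fell by 2.32 (adjusted p = 0.000314). In MB it fell by 1.83 (adjusted p = 0.00276), with 0.676 and 1.02 CPM in MB knockdown against 2.90 and 3.05 CPM in MB control. The group-mean fit called none of these.

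Of 21 fatty acid oxidation genes, 1 rose and 4 fell with the knockdown in MT, against 9.09% and 11.2% of all genes, with a median log2 change of -0.14. In MT, 9 of the 21 were higher in knockdown and 12 were lower. The differences ran from Cd36, at 0.103 CPM in MT knockdown and 3.61 CPM in MT control, to Acadm, at 88.4 and 53.4 CPM. Cpt1a, the carnitine transferase at the entry of oxidation, differed less, at 89.0 CPM in MT knockdown and 76.6 CPM in MT control. It was at 93.8 to 155 CPM in the MB libraries. Of 12 proliferation genes, 2 rose and 2 fell with the knockdown in MT, against the same shares. In control cells 12 of 12 fell between MB and MT, against 22.6% of all genes, with a median of -1.27.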
